A study of Homo sapiens with 18 samples.

Results

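The small nucleolar RNAs (snoRNAs) of the families SNORD113, SNORD114, SNORD115 and SNORD116 lie in long tandem arrays of near-copies at 2 imprinted chromosome regions, 14q32 for the first pair of families and 15q11 for the second pair. The copies described here are all those with a probe set of their own on an Affymetrix whole-transcript human array, chosen by gene symbol and not by any measured value: 46 of 18417 genes. They comprise 2 copies of SNORD113, 4 of SNORD114, 20 of SNORD115 and 20 of SNORD116, so 6 copies from 14q32 and 40 from 15q11. RefSeq lists 40 copies at 14q32 and 78 at 15q11, and the remaining copies were not analysed singly here. A further 17 probe sets each name several of these copies or a copy together with another gene, and they are described separately.

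Box C/D snoRNAs are short nuclear RNAs, spliced out of the introns of longer transcripts, that guide the ribose methylation of other RNAs by the enzyme fibrillarin. Most copies in these 4 families have no known target in ribosomal RNA and are called orphan snoRNAs. SNORD113 and SNORD114 come from the maternal allele of the DLK1-DIO3 region, within the long noncoding transcripts that continue from MEG3. SNORD115 and SNORD116 come from the paternal allele, within the noncoding tail of the SNRPN transcript. Loss of the paternal SNORD116 copies is found in Prader-Willi syndrome, and SNORD115 is known chiefly from brain.

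The RNA came from human umbilical vein endothelial cells (HUVEC), sold by ATCC, and the study asked how 2 kinds of T cell extracellular vesicle (EV) act on them. EVs are membrane particles shed by cells. Their source was either Jurkat, a leukaemic T cell line, or its mutant JinB8, which lacks the surface protein CD47, and they were captured on beads by CD63 or by MHC class 1 (MHC1). The 18 arrays fall into 6 groups of 3: untreated HUVEC, HUVEC with control beads alone (labelled IgG), and HUVEC with Jurkat CD63+, Jurkat MHC1+, JinB8 CD63+ or JinB8 MHC1+ EVs. Beads and EVs were present for 3 days, and no time is stated for the untreated cells. Vesicles of several flasks were pooled before capture, and whether replicate arrays hold RNA of separate HUVEC cultures is not stated. The p-values thus reflect the spread between arrays alone, and that spread may be technical. Of the 6 JinB8 arrays, 5 carry another number after the line's name in the free text of their title. The line in the bracketed sample name was used. The series text names an RNA kit that keeps small RNAs and the sample text names another kit, so how far mature snoRNAs were retained is unknown. In such bulk RNA, fewer cells making a snoRNA and less of it per cell cannot be told apart.

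Replicate 3 of the untreated group and replicate 3 of the beads group stood apart from all other arrays. Their median correlations with the others over all probe sets were 0.649 and 0.636, against at least 0.932 between any pair of the remaining 16. Results are therefore given with 18 arrays and, where they turn on it, with these 16. On the 16 arrays the mean of 15 endothelial markers lay between 9.41 and 9.65 on the log2 scale, and it was 7.18 and 6.32 on the 2 arrays that stood apart. The means of 13 T cell markers (4.20 to 4.66), 11 fibroblast and smooth muscle markers (4.96 to 5.59) and 5 epithelial markers (5.35 to 5.74) were lower on each of the 16. No batch is given in the labels, and the arrays of a group carry neighbouring serial names, so a batch and a group cannot be told apart.

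The mature snoRNA sequences were not in the tables used here. The start regions of MEG3 and of SNURF and SNRPN are shown in their place, because the clusters are compared below. The 14q32 copies lie in transcripts that continue from MEG3, and the 15q11 copies in the tail of the SNRPN transcript. Each window runs from 250 bases before to 50 bases after a RefSeq transcript start (GRCh38.p14, plus strand, read 5′ to 3′), and capitals mark each CG, the dinucleotide that carries DNA methylation and reads the same on both strands.
MEG3, 14q32, chr14:100825858-100826157: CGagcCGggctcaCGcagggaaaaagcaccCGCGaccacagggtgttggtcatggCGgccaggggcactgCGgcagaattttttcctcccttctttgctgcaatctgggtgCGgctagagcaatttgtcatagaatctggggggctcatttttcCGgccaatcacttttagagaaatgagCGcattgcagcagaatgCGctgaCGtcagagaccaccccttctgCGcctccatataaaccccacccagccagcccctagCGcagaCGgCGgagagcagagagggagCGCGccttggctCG
SNURF and SNRPN, 15q11, chr15:24954737-24955036: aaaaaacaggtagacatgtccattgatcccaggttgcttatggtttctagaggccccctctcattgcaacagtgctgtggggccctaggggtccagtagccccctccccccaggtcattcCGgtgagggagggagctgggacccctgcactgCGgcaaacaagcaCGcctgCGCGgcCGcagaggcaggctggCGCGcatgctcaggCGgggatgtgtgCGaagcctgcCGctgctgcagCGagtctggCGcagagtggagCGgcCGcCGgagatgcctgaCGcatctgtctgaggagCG
The MEG3 window holds 19 CGs and the window shared by SNURF and SNRPN holds 18. Of 34943 distinct start windows of the same length, 96.0% hold at least 1 CG, the median is 14, and 42.8% and 44.3% hold at least as many as these 2. No methylation was measured in this series, so the windows only locate these starts. RefSeq lists other starts for MEG3 and SNRPN as well.

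No copy of either cluster passed the test in any comparison with all 18 arrays. The test was limma's moderated test with Benjamini-Hochberg adjustment over all 18417 genes and a threshold of 0.05 on the adjusted p. The shares of all genes called were 0.00543% for all EV groups against beads, Jurkat CD63 against beads, JinB8 CD63 against beads and MHC1 against CD63 within JinB8. They were 0.0434% for JinB8 MHC1 against beads, 0.0326% for JinB8 against Jurkat within MHC1, 0.0109% for the F test over the 6 groups, and 0% in the 5 others. Beside background shares this low a count of 0 of 46 is no result about the copies, and it does not show that they were unchanged. The median standard error of a copy's difference between JinB8 MHC1 and beads was 0.24 on the log2 scale.

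At an unadjusted p under 0.05, 5 of the 46 copies were higher and 0 lower with JinB8 MHC1 EVs than with beads, where 5.04% of all genes reached that level. The 5 were SNORD114-3 and the SNORD116 copies 1, 23, 25 and 26. SNORD116-1 depended on beads replicate 3, at 3.27 beside 5.43 and 5.42 on the other beads arrays. Its difference from beads was 1.06 with 18 arrays and 0.34 with 16 (limma, unadjusted p = 0.039 and 0.244). It also enters the counts below for all EV groups and JinB8 CD63 against beads, where its unadjusted p with 16 arrays was 0.278 and 0.257 in limma. Between JinB8 and Jurkat MHC1 EVs 4 copies had an unadjusted p under 0.05, all higher with JinB8, against 3.43% of all genes. All EV groups against beads gave 3 copies (3.83% of all genes), JinB8 CD63 against beads 2 (1.48%), and MHC1 against CD63 within JinB8 2 (1.7%). Jurkat CD63 against beads, beads against untreated, and the interaction of cell line and capture gave 1 copy each, against 1.06%, 1.11% and 2.44% of all genes. Jurkat MHC1 against beads (1.19%), JinB8 against Jurkat within CD63 (0.255%) and MHC1 against CD63 within Jurkat (0.44%) gave 0. The F test gave 4 copies, SNORD114-3, SNORD116-6, SNORD116-25 and SNORD116-26, against 1.09% of all genes, with an adjusted p of 0.868 in limma for each.

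**Figure D1:**
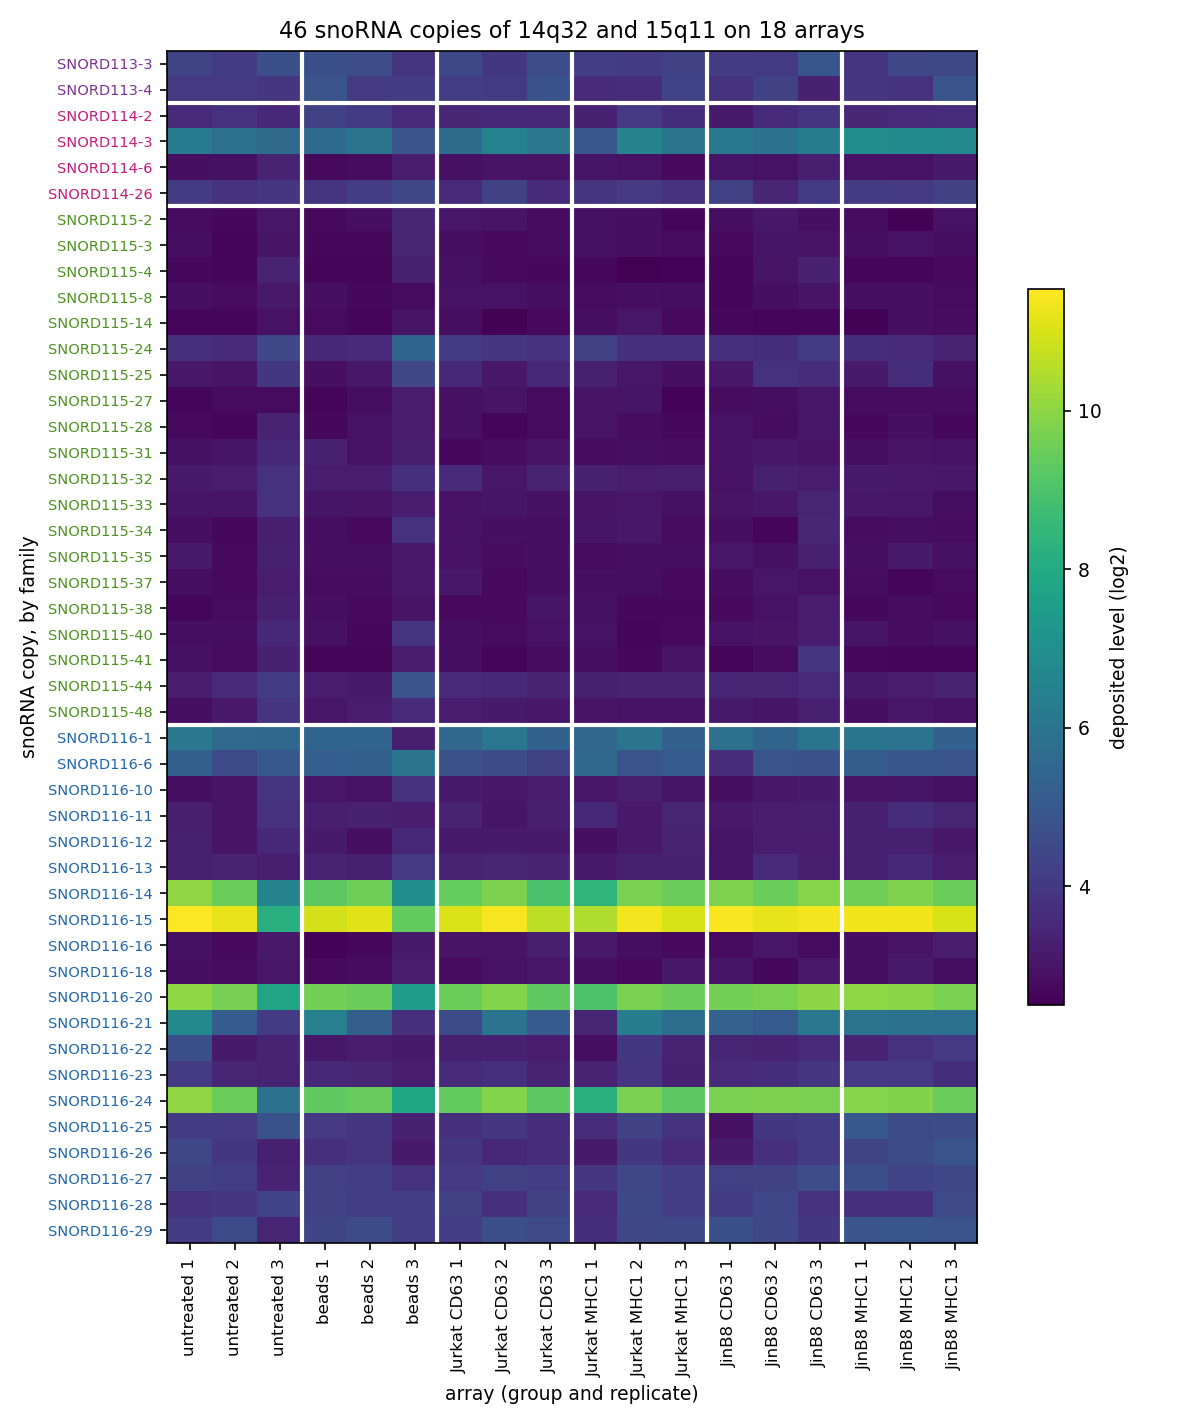
Deposited log2 level (colour) of each of the 46 copies (rows, label colour by family) on each of the 18 arrays (columns, by group). The 20 SNORD115 rows stay between 2.50 and 4.20 on the 16 concordant arrays, a few SNORD116 rows are bright throughout, and replicate 3 of the untreated and beads groups differs from its neighbours.

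At 14q32, SNORD114-3 was the copy that differed most between groups. Its level was 6.27, 5.84 and 5.61 on the untreated arrays and 5.66, 5.97 and 4.87 with beads. With CD63 EVs it was 5.71, 6.46 and 6.09 for Jurkat and 6.16, 5.92 and 6.32 for JinB8. With MHC1 EVs it was 4.96, 6.54 and 5.98 for Jurkat and 6.96, 6.84 and 6.75 for JinB8. All 3 JinB8 MHC1 arrays were thus above each of the other 15, while the other 5 groups overlapped one another. The group means were 6.85 ± 0.11 (SD, n = 3) with JinB8 MHC1 EVs, 5.83 ± 0.80 with Jurkat MHC1 EVs and 5.50 ± 0.57 with beads. The difference from beads was 1.35 ± 0.36 (SE; 95% interval 0.57 to 2.12) on the log2 scale and did not pass the adjustment (limma, unadjusted p = 0.002, adjusted p = 0.462). Against Jurkat MHC1 it was 1.02 ± 0.36 (adjusted p = 0.927).

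SNORD114-3 and SNORD116-29 were the 2 copies of 46 whose JinB8 MHC1 arrays all lay above the other 15 arrays, as 2.57% of all genes did. No copy had all 3 below, as 1.17% of genes did. SNORD114-3 depended on single low arrays in size. Without beads replicate 3 its difference from beads was 1.03, and without Jurkat MHC1 replicate 1 its difference from Jurkat MHC1 was 0.59.

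The other 5 copies at 14q32 showed no common direction. SNORD114-2 was 3.56, 3.83 and 3.52 untreated, 4.26, 4.05 and 3.56 with beads, 3.47, 3.56 and 3.52 with Jurkat CD63 EVs, 3.35, 4.01 and 3.69 with Jurkat MHC1 EVs, 3.14, 3.61 and 3.89 with JinB8 CD63 EVs and 3.48, 3.63 and 3.66 with JinB8 MHC1 EVs. The first pair of beads arrays lay above all other arrays, and the third beads array, which stood apart, did not. With 16 arrays all EV groups together were 0.57 ± 0.17 (SE) below beads, a difference of -0.57 (limma, adjusted p = 0.917). With 18 arrays that difference was -0.37, and without beads replicate 1 it was -0.22. SNORD113-3 and SNORD113-4 differed between JinB8 MHC1 EVs and beads by -0.15 and -0.11, SNORD114-6 by 0.12 and SNORD114-26 by -0.04, each with groups that overlapped.

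At 15q11, the 20 SNORD115 copies varied little between the concordant arrays. On those 16 arrays they lay between 2.50 and 4.20, and the median copy spanned 0.57 from its lowest to its highest array. Levels of different probe sets depend on their probes and are not compared with one another here. None of the 20 reached an unadjusted p of 0.05 in any of the 11 comparisons with 18 arrays. SNORD115-24, the copy with the highest mean of its family, was 3.73, 3.59 and 4.45 untreated and 3.50, 3.59 and 5.43 with beads. It was 4.05, 3.92 and 3.80 with Jurkat CD63 EVs, 4.20, 3.76 and 3.75 with Jurkat MHC1 EVs, 3.71, 3.69 and 4.03 with JinB8 CD63 EVs and 3.68, 3.62 and 3.42 with JinB8 MHC1 EVs. Both of its high values were those of the arrays that stood apart, and its difference between JinB8 MHC1 EVs and beads was -0.60 with 18 arrays and 0.03 with 16.

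The SNORD116 copies were more varied. On the 16 arrays their means ranged from 2.90 to 11.2, and the span of a single copy from 0.40 to 3.33. SNORD116-15 was 11.53, 11.23 and 8.21 untreated, 10.95, 11.13 and 9.36 with beads, 11.06, 11.41 and 10.63 with Jurkat CD63 EVs, 10.44, 11.38 and 10.99 with Jurkat MHC1 EVs, 11.43, 11.21 and 11.38 with JinB8 CD63 EVs and 11.34, 11.34 and 10.999 with JinB8 MHC1 EVs. With the 2 low arrays set aside, the remaining beads arrays lay below the remaining untreated and all JinB8 CD63 arrays and overlapped the other 3 EV groups. Its difference between JinB8 MHC1 EVs and beads was 0.75 ± 0.67 (SE) with 18 arrays and 0.19 ± 0.25 with 16. The 3 other copies with means above 9, SNORD116-14, SNORD116-20 and SNORD116-24, gave differences of 1.03, 1.01 and 0.86 with 18 arrays and of 0.23, 0.32 and 0.34 with 16. Across the 16 arrays these 4 copies, chosen after their values were seen, had pairwise Pearson correlations of 0.877 to 0.956, and 0.867 to 0.940 after group means were removed. Near-identical copies can share probes and RNA, so their probe sets are not independent.

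SNORD116-25 and SNORD116-26 were the SNORD116 copies with the largest difference from beads in the JinB8 MHC1 group when 16 arrays were used, 0.76 and 0.78 on the log2 scale, though neither was called. SNORD116-25 was 4.08, 3.99 and 4.79 untreated, 4.002, 3.88 and 3.33 with beads, 3.74, 3.94 and 3.66 with Jurkat CD63 EVs, 3.65, 4.25 and 3.84 with Jurkat MHC1 EVs, 2.89, 3.98 and 4.10 with JinB8 CD63 EVs and 4.98, 4.55 and 4.58 with JinB8 MHC1 EVs. Apart from untreated replicate 3, no array reached the level of the JinB8 MHC1 group. The group mean of 4.70 ± 0.24 (SD, n = 3) was 0.96 ± 0.32 (SE) above beads, 0.79 ± 0.32 above Jurkat MHC1 and 1.05 ± 0.32 above JinB8 CD63 (limma, adjusted p = 0.462, 0.927 and 1.00). The last of these differences was 0.66 without JinB8 CD63 replicate 1, the array at 2.89.

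SNORD116-26 was 4.42, 3.98 and 3.30 untreated, 3.75, 3.90 and 3.16 with beads, 3.93, 3.56 and 3.64 with Jurkat CD63 EVs, 3.16, 3.96 and 3.61 with Jurkat MHC1 EVs, 3.16, 3.75 and 4.07 with JinB8 CD63 EVs and 4.37, 4.61 and 4.84 with JinB8 MHC1 EVs. The JinB8 MHC1 arrays were above every other EV or beads array, and 1 untreated array lay within them. Its differences were 1.00 ± 0.32 (SE) from beads, 1.03 ± 0.32 from Jurkat MHC1 and 0.95 ± 0.32 from JinB8 CD63, with the same 3 adjusted p-values. With 18 arrays it was the only copy with an unadjusted p under 0.05 for the interaction of line and capture (1.08 ± 0.45 SE, limma, adjusted p = 0.923). With 16 arrays SNORD114-3, SNORD116-25 and SNORD116-29 were under 0.05 as well, and the 4 adjusted p-values in limma ran from 0.138 to 0.158. For SNORD114-3 an unadjusted p of 0.035 in limma went with an adjusted p of 0.158. Unadjusted p-values this low were thus common among all genes with 16 arrays, and the count is no result about the copies. SNORD116-29 was 4.88, 4.92 and 4.82 with JinB8 MHC1 EVs and at most 4.72 on the other 15 arrays, 0.68 ± 0.29 (SE) above Jurkat MHC1 (limma, adjusted p = 0.927). Without Jurkat MHC1 replicate 1 that difference was 0.43.

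SNORD116-6 went the other way: it was lower with both CD63 EVs, and by less with JinB8 MHC1 EVs, than with beads, and none of these differences was called. It was 5.29, 4.53 and 5.01 untreated, 5.20, 5.31 and 5.99 with beads, 4.73, 4.55 and 4.28 with Jurkat CD63 EVs, 5.51, 4.83 and 5.07 with Jurkat MHC1 EVs, 3.66, 4.86 and 4.75 with JinB8 CD63 EVs and 5.16, 4.90 and 4.86 with JinB8 MHC1 EVs. All 6 CD63 arrays and all 3 JinB8 MHC1 arrays were below all 3 beads arrays. They overlapped the untreated arrays, and the Jurkat MHC1 arrays overlapped the beads arrays. The differences from beads were -0.98 ± 0.32 (SE) for Jurkat CD63, -1.07 ± 0.32 for JinB8 CD63 and -0.52 ± 0.32 for JinB8 MHC1 (limma, adjusted p = 0.599, 0.865 and 0.462). All used the same beads arrays. With 16 arrays they were -0.73, -0.83 and -0.28, and without JinB8 CD63 replicate 1 the second was -0.69.

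**Figure D2:**
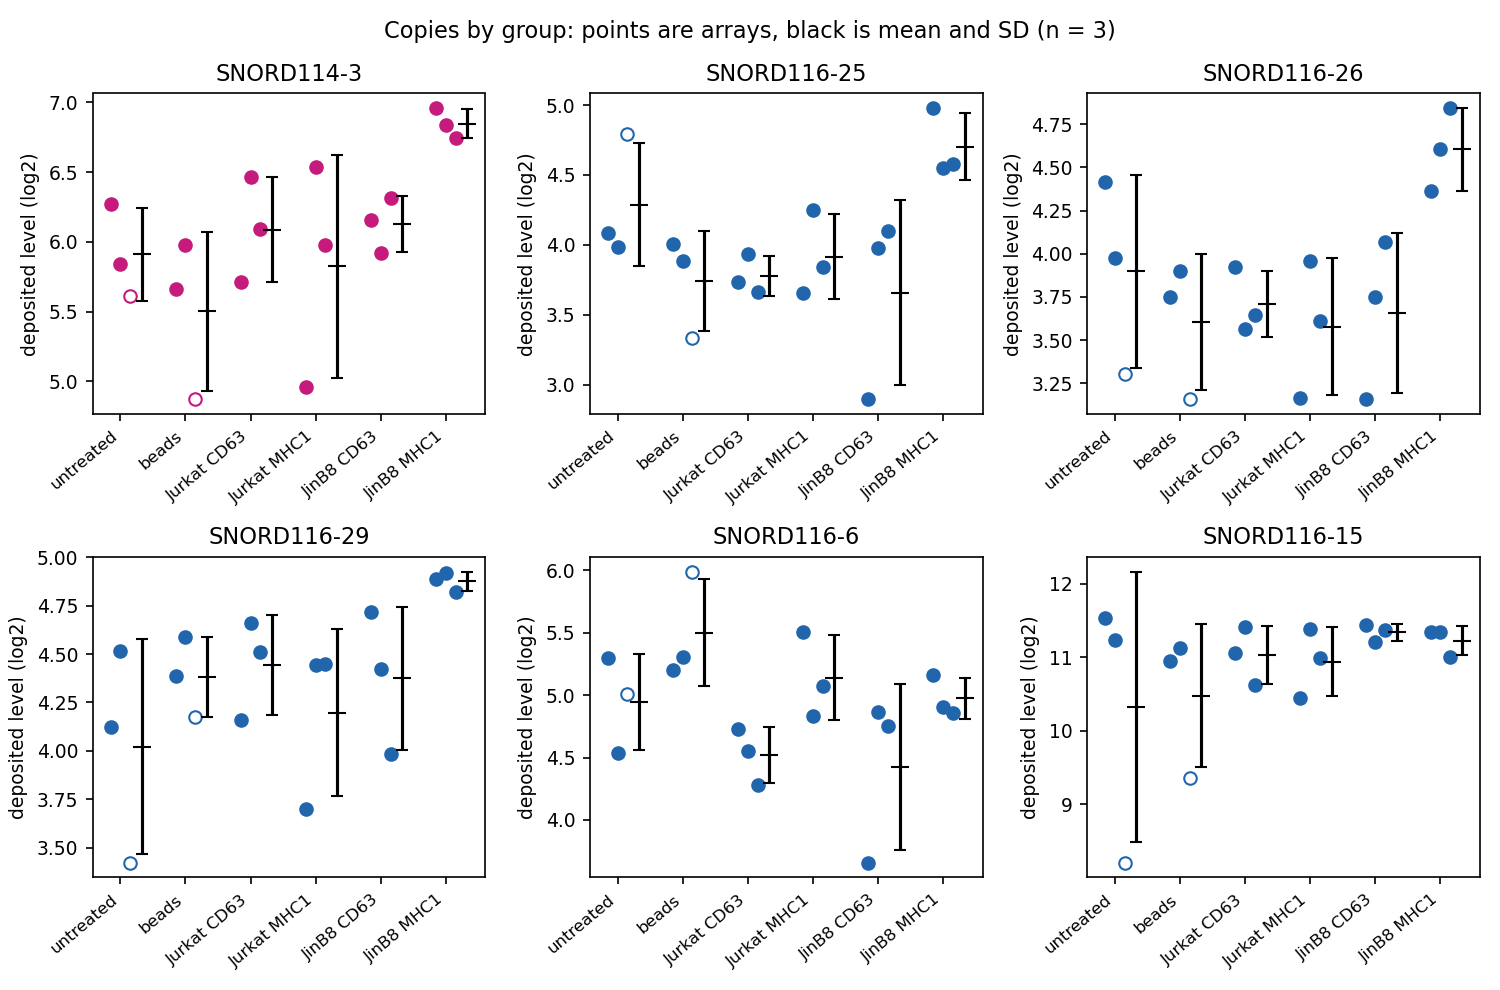
Deposited log2 level of 6 copies by group (each panel has its own axis). Points are arrays, open points the 2 arrays that stood apart, and the black mark is the mean with SD of all 3 arrays. SNORD114-3 and SNORD116-29 are highest on the 3 JinB8 MHC1 arrays, SNORD116-25 and SNORD116-26 overlap 1 untreated array, SNORD116-6 is lower with CD63 and JinB8 MHC1 EVs than with beads, and SNORD116-15 varies mainly through the open points.

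Counted over families with 18 arrays, the SNORD116 copies leaned upward in the JinB8 MHC1 group and the SNORD115 copies did not. Against beads, 16 of 20 SNORD116 copies were higher (median difference 0.49 with 18 arrays), while 2 of 20 SNORD115 copies were (median -0.19). The median over all genes was -0.09. With 16 arrays the medians were 0.26 for SNORD116, with 17 of 20 higher, and 0.02 for SNORD115, with 13 of 20 higher, against -0.02 for all genes. Against Jurkat MHC1, 17 of 20 SNORD116 copies (median 0.30) and 9 of 20 SNORD115 copies (median -0.04) were higher, with a median of -0.06 for all genes. With 18 arrays the lean against beads was not particular to JinB8 MHC1. Most SNORD116 copies were then also higher than beads with Jurkat CD63 EVs and with all EV groups together, which include JinB8 MHC1. With 16 arrays most were no longer higher with Jurkat CD63 or Jurkat MHC1 EVs. With JinB8 CD63 EVs most still were. Beads replicate 3 was below the other beads arrays' mean for 13 of 20 SNORD116 copies. These are counts of direction and not of calls, given without the share of all genes that were higher. Whether the 2 families differ was not tested.

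The medians of both regions were small and turned sign with the scaling or the arrays kept in some comparisons. For JinB8 MHC1 EVs against beads the median was -0.08 over the 6 copies of 14q32 and -0.06 over the 40 of 15q11 with 18 arrays, and -0.06 and 0.06 with 16. For JinB8 against Jurkat within MHC1 it was 0.17 and 0.09, with 5 of 6 and 26 of 40 copies higher. For MHC1 against CD63 within JinB8 it was 0.12 and -0.05, and for all EV groups against beads -0.17 and -0.03. For beads against untreated it was 0.10 and 0.00. At 15q11 the median pools the SNORD115 copies with the SNORD116 copies, and centring each array on its median raised it to 0.14 for JinB8 MHC1 EVs against beads and 0.23 against Jurkat MHC1. At 14q32 the median for JinB8 MHC1 EVs against beads turned to 0.12 after centring and to 0.23 after a second quantile normalization.

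Copies whose groups did not overlap were found with CD63 EVs as well as with MHC1 EVs. With JinB8 CD63 EVs 5 copies, all SNORD116 (15, 20, 22, 23 and 24), had all 3 arrays above all 3 beads arrays, where 1.7% of all genes did, and SNORD116-6 was entirely below, where 2.24% did. With Jurkat CD63 EVs SNORD116-22 was above (3.24% of all genes) and SNORD114-2 and SNORD116-6 were below (3.1%). With Jurkat MHC1 EVs no copy was above (2.16%) and SNORD115-31 and SNORD115-48 were below (1.59%).

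In the JinB8 MHC1 group, 10 copies had all 3 arrays above all 3 beads arrays, where 9.88% of all genes did: SNORD114-3 and 9 SNORD116 copies (11, 20, 22, 23, 24, 25, 26, 27 and 29). The 3 copies entirely below beads were SNORD115-32, SNORD115-48 and SNORD116-6, where 10.2% of all genes were below. Against Jurkat MHC1, 6 copies were entirely above (SNORD114-3, SNORD114-26, SNORD115-31, SNORD116-25, SNORD116-26 and SNORD116-29) and 3 entirely below (SNORD115-24, SNORD115-32 and SNORD116-10), beside 15.5% and 16.6% of all genes. Against JinB8 CD63, SNORD114-3, SNORD116-11, SNORD116-25, SNORD116-26 and SNORD116-29 were entirely above (12.8% of all genes) and SNORD115-24, SNORD115-27 and SNORD115-44 below (14.5%). Between Jurkat MHC1 and Jurkat CD63, SNORD116-6 was above (5.06%) and SNORD115-4, SNORD115-48 and SNORD116-13 below (5.92%). Between JinB8 and Jurkat CD63, SNORD115-40, SNORD116-22 and SNORD116-27 were above (4.29%) and no copy below (5.06%), and between beads and untreated SNORD116-1 was below (1.05%) and no copy above (0.608%). The counts against beads share the same 3 beads arrays and include replicate 3 of the beads, which was low for most SNORD116 copies.

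SnoRNAs outside these clusters differed by more in the same group. Of 69 other box C/D snoRNAs, 62 were higher with JinB8 MHC1 EVs than with beads, with a median of 1.17, and 3 were called. Against Jurkat MHC1 63 of 69 were higher, with a median of 0.90 and 3 called. For 61 box H/ACA RNAs, which guide pseudouridylation, the medians were 0.83 and 1.05, with 4 and 2 called. All of these calls were higher in the JinB8 MHC1 group. Most copies of the imprinted clusters were low in level: 11 of the 46 remained after the lowest 25% of genes by mean were left out. How far level bears on their smaller differences was not tested.

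With 16 arrays the shares of all genes called were 0.212% against beads and 0.386% against Jurkat MHC1, and at an unadjusted p under 0.05 they were 5.18% and 29.6%. The other C/D snoRNAs then gave 11 and 22 calls and the H/ACA RNAs 14 and 26, and the 46 copies still gave 0 and 0, with 5 and 7 copies at an unadjusted p under 0.05. Whether the copies of the imprinted clusters differ from other snoRNAs was not tested as such.

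**Figure D3:**
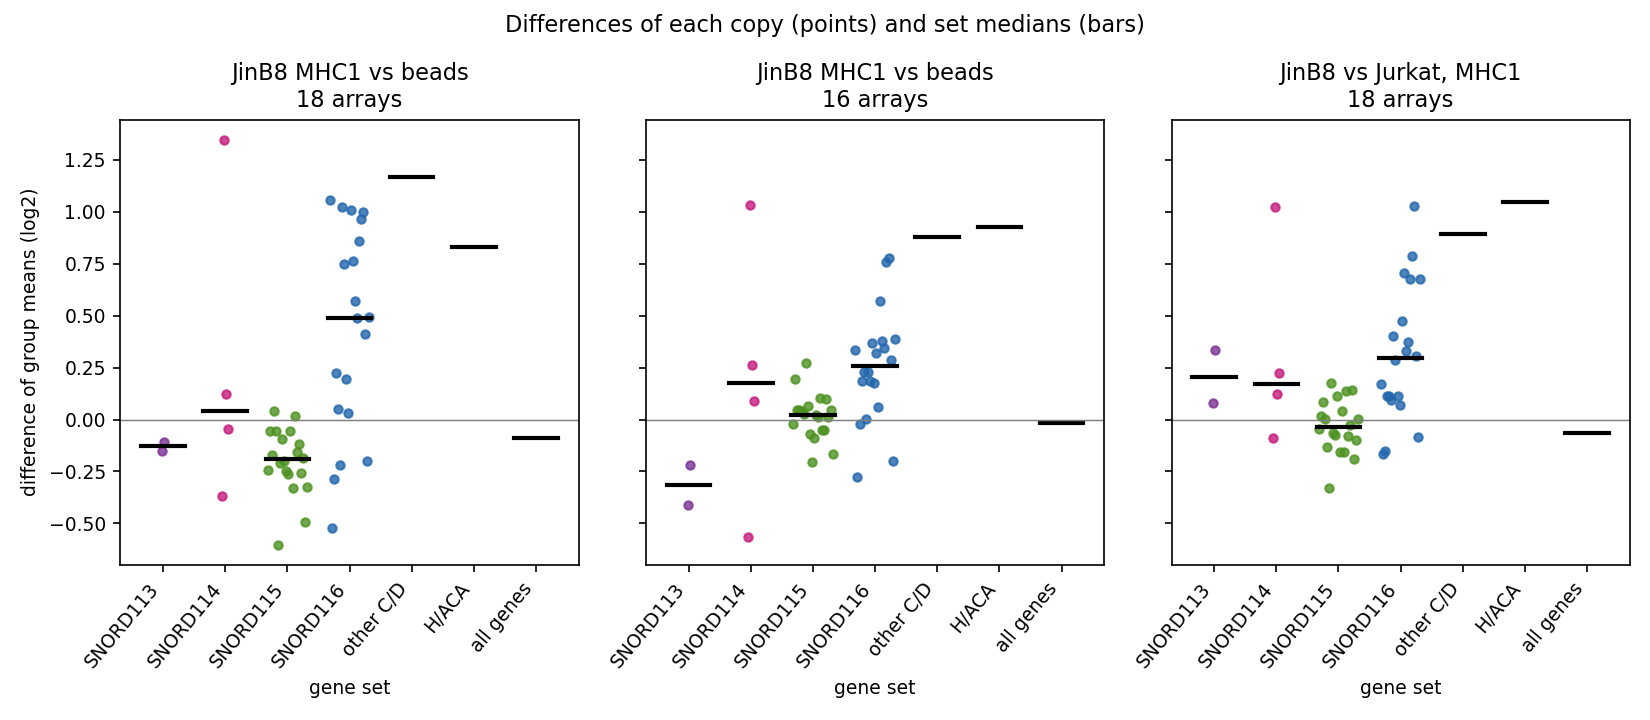
Difference of group means (log2) for each copy (points) in JinB8 MHC1 against beads with 18 and with 16 arrays and in JinB8 against Jurkat within MHC1. Black bars are medians of each family, of 69 other C/D snoRNAs, of 61 H/ACA RNAs and of all 18417 genes. SNORD116 medians (0.49, 0.26, 0.30) lie between the SNORD115 medians (-0.19, 0.02, -0.04) and those of the other C/D snoRNAs (1.17, 0.88, 0.90).

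Calls among the copies appeared when noisy arrays were left out or weighted down. Without Jurkat MHC1 replicate 1 as well, which correlated less with the others (median 0.947), 15 arrays remained. SNORD114-3 was then called against beads (1.03, limma adjusted p = 0.039), beside 0.63% of all genes. SNORD116-25 (1.05, adjusted p = 0.041) and SNORD116-26 (0.95, adjusted p = 0.033) were called between JinB8 MHC1 and JinB8 CD63, beside 1.93% of all genes. Both calls rest on a JinB8 CD63 group that includes its low replicate 1. With limma's array weights on all 18 arrays, 4 copies were called for JinB8 MHC1 against beads: SNORD114-3, SNORD116-25 and SNORD116-26 higher and SNORD114-2 lower, beside 6.54% of all genes. That setting called 8 copies between JinB8 and Jurkat within MHC1 (33.4% of all genes), 4 between MHC1 and CD63 within JinB8 (19.2%), 2 for the interaction (27.9%), 8 in the F test (28.1%) and 1, SNORD116-6, for JinB8 CD63 against beads (0.402%). Its weights ran from 0.020 for beads replicate 3 to 5.36 for Jurkat MHC1 replicate 2.

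On the arrays that stood apart the SNORD115 copies were higher and most, but not all, SNORD116 copies were lower. All 20 SNORD115 copies were higher there than the mean of the other 2 arrays of the group, by a median of 0.57 on untreated replicate 3 and 0.51 on beads replicate 3. Of the SNORD116 copies, 12 and 13 were lower, and 8 and 7 were higher. Among those higher on both arrays were SNORD116-10 and SNORD116-18, with means of 3.04 and 2.90 on the 16 arrays, and SNORD116-6, at 4.84. Whether the direction goes with level or with family was not tested. The largest differences were -3.91 for SNORD116-24 on the untreated array and -2.39 for SNORD116-14 on the beads array. These 2 arrays had a spread over all probe sets (SD 1.56 and 1.57) below the 2.01 to 2.25 of the others. Across 18 arrays the median pairwise correlation among SNORD115 copies was 0.59, and with 16 it was 0.36. Among SNORD116 copies it was 0.03 and 0.20.

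**Figure D4:**
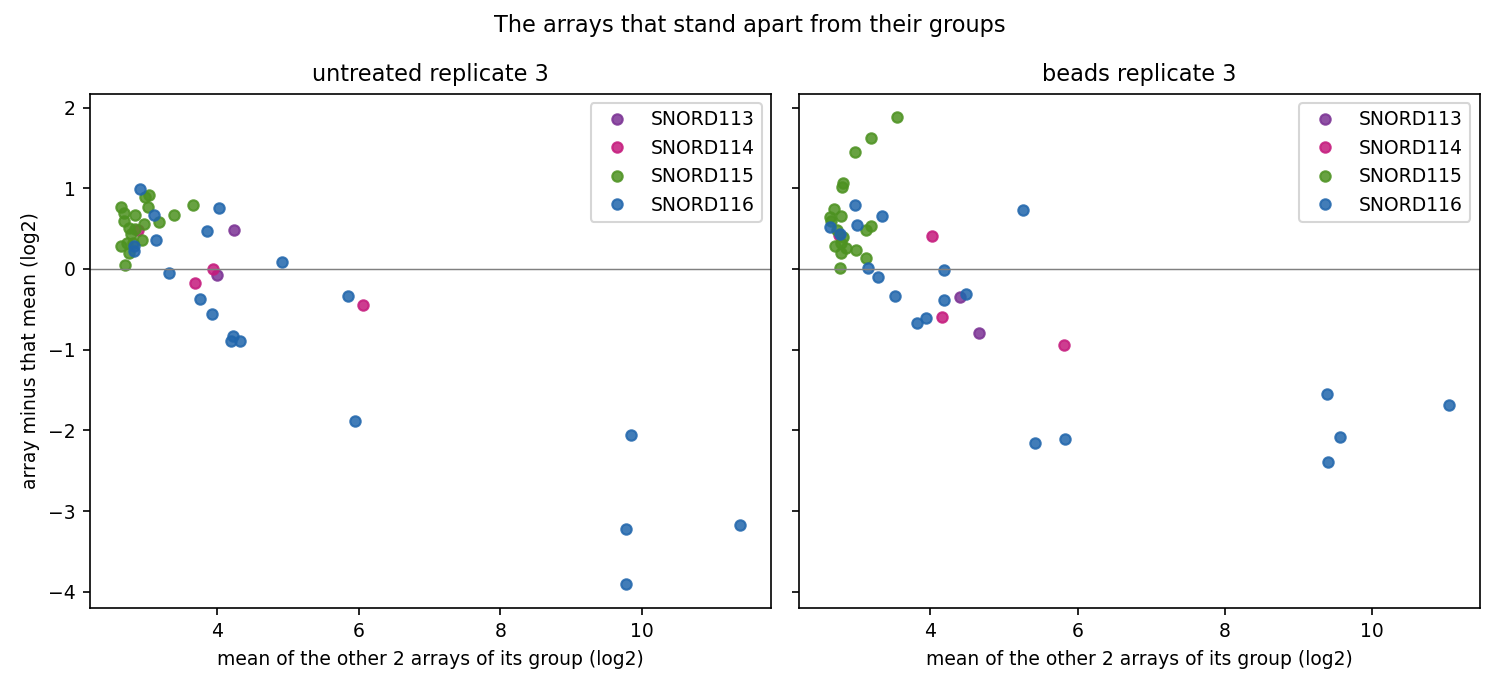
For untreated replicate 3 and beads replicate 3, the difference of each copy from the mean of the other 2 arrays of its group (y, log2) against that mean (x, log2), coloured by family. All 20 SNORD115 copies lie above 0 on both arrays, and the bright SNORD116 copies lie below it, the lowest at -3.91.

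Of the probe sets that name several genes, 8 hold SNORD115 copies and 9 hold SNORD116 copies. The means of the former on the 16 arrays were 2.80 to 3.06 and of the latter 5.93 to 10.3. In both families some of these probe sets carry identical values. They are not independent, and each was counted in the medians that follow. For JinB8 MHC1 EVs against beads the median differences of the SNORD115 and SNORD116 probe sets were -0.39 and 0.86 with 18 arrays, and 0.03 and 0.24 with 16. With 18 arrays they ranged from -0.48 to 0.04 for SNORD115 and from -1.39 to 0.98 for SNORD116. The lowest SNORD116 probe set, which names 2 copies, was also lower with 16 arrays (-0.82) and against Jurkat MHC1 (-0.44).

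Neighbouring imprinted genes did not pass the test either. Of 30 listed genes of the 14q32 region 14 were measured and of 22 of the 15q11 region 7, with 0 called in each direction in JinB8 MHC1 against beads and against Jurkat MHC1. Beside 0.0434% and 0.0326% of all genes called there, these counts are no result about the neighbours. MEG3, the noncoding RNA upstream of the 14q32 snoRNAs, was 7.34, 7.36 and 7.18 with Jurkat MHC1 EVs and 6.88, 6.61 and 6.66 with JinB8 MHC1 EVs. These groups did not overlap, and 16.6% of all genes lay entirely below in this comparison. With 16 arrays 29.6% of all genes had an unadjusted p under 0.05 in it. The MEG3 difference was -0.58 ± 0.22 (SE, limma, adjusted p = 0.927, and 0.071 with 16 arrays). It was opposite in sign to SNORD114-3. The fall was not particular to MEG3: DLK1, RTL1, DIO3 and DIO3OS of 14q32 were also lower with JinB8 than with Jurkat MHC1 EVs. Group means of DIO3OS were 5.60 and 6.11. At 15q11 NPAP1 was lower (4.25 and 4.997) and UBE3A higher (7.25 and 6.91). The microRNA genes of 14q32 differed little, with values from -0.25 (MIR377) to 0.02 (MIR136) in that comparison. At 15q11, PWAR6, a noncoding RNA near SNORD116, differed from beads by -0.53 with 18 arrays and -0.94 with 16 (adjusted p = 0.475 and 0.866). UBE3A, a ubiquitin ligase gene at the far end of the domain, differed by 0.70 and 0.05.

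Of the proteins that box C/D snoRNAs need, the 2 measured core genes and all 7 assembly genes gave 0 calls in JinB8 MHC1 against beads and against Jurkat MHC1. Beside 0.0434% and 0.0326% of all genes called there, this is no result about these genes. FBL, which encodes fibrillarin, differed from beads by 0.67 with 18 arrays and 0.05 with 16, and NOP58, a core scaffold, by 1.19 and -0.06. ZNHIT3, an assembly factor, was 5.29, 5.51 and 5.15 with JinB8 MHC1 EVs and 5.01, 4.62 and 4.53 with beads, a difference of 0.59 ± 0.18 (SE; limma, adjusted p = 0.462).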

How the data were processed

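RNA of 18 HUVEC samples was measured on Affymetrix arrays. The deposited values are log2 signals of 33297 probe sets, made by the authors with Affymetrix Expression Console and RMA, per the submitters' processing notes, which fixes neither the probe sequences nor any detection limit. RMA summarises and quantile-normalises all arrays together, so an array that stands apart can shift others. Of the probe sets, 12083 have no gene symbol in the platform annotation, 1754 several and 19460 one. For the 769 genes with several probe sets the one with the highest mean was kept, which gave 18417 genes. No filter on level was used.

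One limma model (limma 3.58.1, R 4.3.3) with the 6 groups was fitted to all genes, giving 11 comparisons and an F test, with Benjamini-Hochberg adjustment over all genes. The number of arrays limits the precision. The code was tested on simulated data. Replicate numbers follow the order of deposit and pair nothing.

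The members and lists were chosen with earlier results of these data known. The rule for naming took copies called in any comparison. For each family it took the 3 largest rises and falls in JinB8 MHC1 against beads and against Jurkat MHC1. It also took the 2 smallest F test p-values and the lowest and highest mean of each family, with the neighbouring genes. Not all copies so taken are described singly, SNORD116-21 among those left out. SNORD116-22, SNORD116-23, SNORD116-24, SNORD116-27 and SNORD116-29, the other copies counted by overlap and outside this rule, and the copies called under an alternative were named after their values were seen. Alternatives covered the arrays kept, probe set choice, a filter on low levels, variance model, normalization, array weights, the groups fitted and the control. Figures were drawn with Python 3.11.15 and matplotlib 3.10.9, and sequences come from RefSeq tables of GRCh38.p14.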

Additional observations from a re-analysis of the deposited data

How the results depend on the processing

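Of 327 counts of called copies under an alternative, 319 were 0, as with 18 arrays, and 8 were higher. With 15 arrays 1 copy was called for JinB8 MHC1 against beads (0.63% of all genes) and 2 for MHC1 against CD63 within JinB8 (1.93%). With array weights the counts were 1 for JinB8 CD63 against beads (0.402% of all genes) and 4 for JinB8 MHC1 against beads (6.54%). They were 8 for JinB8 against Jurkat within MHC1 (33.4%) and 4 for MHC1 against CD63 within JinB8 (19.2%). The interaction gave 2 (27.9%) and the F test 8 (28.1%). The cause of these calls was not tested. No count changed when any 1 array was left out. The default way of estimating the weights did not converge, so the gene-by-gene way was used.

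Of 246 cluster medians under an alternative, 224 moved by less than the spread between arrays. For all EV groups against beads, a second quantile normalization gave 0.048 at 14q32 and 0.068 at 15q11, and 15q11 was 0.082 with 16 arrays, 0.105 with 15, 0.082 with arrays centred on their medians and 0.098 with array weights. For JinB8 MHC1 against beads, 14q32 gave 0.229 after the second normalization and 0.117 after centring. In that comparison 15q11 gave 0.063 with 16 arrays and with 15, 0.095 after the second normalization, 0.137 after centring and 0.103 with array weights. Centring also moved 15q11 to 0.227 for JinB8 against Jurkat within MHC1 and to 0.064 for MHC1 against CD63 within JinB8. Leaving out 1 array gave -0.223 to 0.008 at 14q32 and -0.096 to 0.082 at 15q11 for all EV groups against beads. At 15q11 it gave -0.124 to 0.063 for JinB8 MHC1 against beads and -0.136 to 0.124 for beads against untreated. The 15q11 extremes above 0 were those without replicate 3 of the beads, or of the untreated group in the last comparison. Several of these medians are opposite in sign to those with 18 arrays, and the cause was not tested beyond the arrays named. Adding the distinct probe sets that name several copies, chosen after the data were seen, moved neither 15q11 median beyond that spread.

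SNORD116-6 in JinB8 MHC1 turned from -0.524 against beads to 0.031 against untreated cells, and the cause was not tested. SNORD114-3, SNORD116-25, SNORD116-26 and SNORD116-29 kept their direction in JinB8 MHC1 under each alternative run for them. After the lowest 25% of genes by mean were left out, 11 of the 46 copies remained. No paired analysis was possible because the labels give no replicate numbers shared between groups. The arrays give no detection limit, so a low level cannot be told from background here.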
